A study of Mus musculus with 9 samples.

Results

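*Hgf*, *Bace1*, *Slco3a1*, *Arhgap6* and *Gm42047* are 5 mouse genes that were transcribed in 2 immortalized myeloid progenitor lines and were close to silent in a leukemia line. They were picked because, of all genes measured, their loss in the leukemia line was among the most certain. *Met*, the gene of the HGF receptor, and *Bace2*, the paralog of *Bace1*, were set beside them for their function. These 7 genes were taken by symbol from a count table of 54347 genes. Of the 7, 6 passed the filter on low counts and were among the 13082 genes tested, and *Bace2* had 0 counts in every library. Since the 5 silent genes were chosen on the leukemia line, their values there are a description with no test, and a filter that keeps a gene for its level in the Hox lines could only keep genes that differ.

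Messenger RNA was sequenced from 3 mouse lines with 3 libraries each. Hox-WT was made from wild-type (WT) bone marrow progenitors. Hox-URE was made in the same way from a mouse with the UREd/d genotype, in which both copies of the upstream regulatory element (URE) are deleted. The URE is an enhancer of *Spi1*, which encodes the transcription factor PU.1. Both were immortalized with a fusion of Hoxb8 and the estrogen receptor, which is active while estradiol is present. URE-AML, labelled B22 and AML blast-like, was grown from leukemic blasts with the same UREd/d genotype. All lines were kept in IMDM with serum, IL-3, IL-6, SCF and β-estradiol. Each genotype and stage is 1 line, so every difference is a difference between lines, and the labels do not say whether libraries came from separate cultures. The Hox lines were made with the fusion and URE-AML was not, so leukemic origin and lack of the fusion cannot be told apart. The p-values below therefore measure the spread between libraries, which may be technical.

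As background, HGF is a secreted growth factor made as an inactive single chain. Serine proteases such as hepsin and matriptase cut it, after which it binds the receptor tyrosine kinase MET. In the marrow it is known as a product of stromal cells and of some myeloid cells. BACE1 is the membrane-bound aspartic protease of β-secretase cleavage, which opens the processing of the amyloid precursor protein APP before γ-secretase cuts the remaining stub. *Slco3a1* encodes an organic anion transporter of the plasma membrane that carries prostaglandins among other substrates. *Arhgap6* encodes a GTPase-activating protein that switches off RhoA. *Gm42047* is a long intergenic non-coding RNA with no role named here.

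The 9 libraries held 20331064 to 28588718 counts. Levels are given as CPM, which are counts scaled to library total and TMM factor, and where 3 levels stand together they are in the order Hox-WT, Hox-URE, URE-AML. The floor of 3 counts in a library, used for genes at 0, stood at 0.104 to 0.153 CPM. Intervals and floors cover counting error only. *Spi1* had 2791 to 2932, 0 to 1 and 62 to 148 counts in the libraries of the lines, and *Hoxb8* had 1725 to 2016, 2503 to 3481 and 0. Of 6 progenitor markers, 6, 5 and 3 were above 3 counts. The marker *Ptprc*, which encodes the blood cell antigen CD45, stood at 158 ± 10.2 CPM (SD, n = 3) in Hox-WT but had 0 counts in every Hox-URE library and 0 to 1 in URE-AML, although the labels call Hox-URE a hematopoietic progenitor. The reads behind these 0 counts were not examined here, and the marker tally includes this gene. *Kit*, the receptor of SCF, was present in all 3 lines at 175 ± 15.7, 43 ± 7.62 and 96.9 ± 3.67 CPM (SD, n = 3 each).

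*Hgf* (ENSMUSG00000028864) lies on the plus strand of chromosome 5 at 16553495 to 16620152 (GRCm38, GENCODE M21). Its libraries held 3821, 4826 and 4624 counts in Hox-WT, or 143, 172 and 160 CPM. In Hox-URE they held 10548, 11929 and 11118 counts, or 384, 494 and 568 CPM, and in URE-AML they held 2, 1 and 1 counts. No library of one line reached into the range of another, with Hox-URE highest and URE-AML at or under the floor. *Hgf* was 2742-fold higher in Hox-WT than in URE-AML (95% exact interval 1071 to 10067) and 8153-fold higher in Hox-URE (3184 to 29926). Between the Hox lines, a contrast not used to choose it, it was 2.97-fold higher in Hox-URE, with a log2 fold change of 1.60 ± 0.14 (SE) and an adjusted p of 8.06e-06 in edgeR's quasi-likelihood test. A gene picked for its loss against Hox-URE was in part picked for being high there. Picking by certainty also favours genes with little spread between libraries, and 1 fit gave the spread for all comparisons. For each of the 5 silent genes, the SE and p-value between the Hox lines are thus not independent of the choice.

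Per kilobase of exon, *Hgf* stood at 22 ± 2.03 CPM per kb in Hox-WT, above 81.5% of the genes tested, and at 67.1 ± 12.9 in Hox-URE, above 93.4% (SD, n = 3 each). A small share of its sequence, 6.31% of its 31-base words, also occurs in *Gm43489*, an unclassified transcript annotated within *Hgf* on the same strand. *Gm43489* had 85 to 93, 139 to 257 and 0 counts, which followed the order of *Hgf*, and reads of the shared part cannot be told apart.

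**Figure D1:**
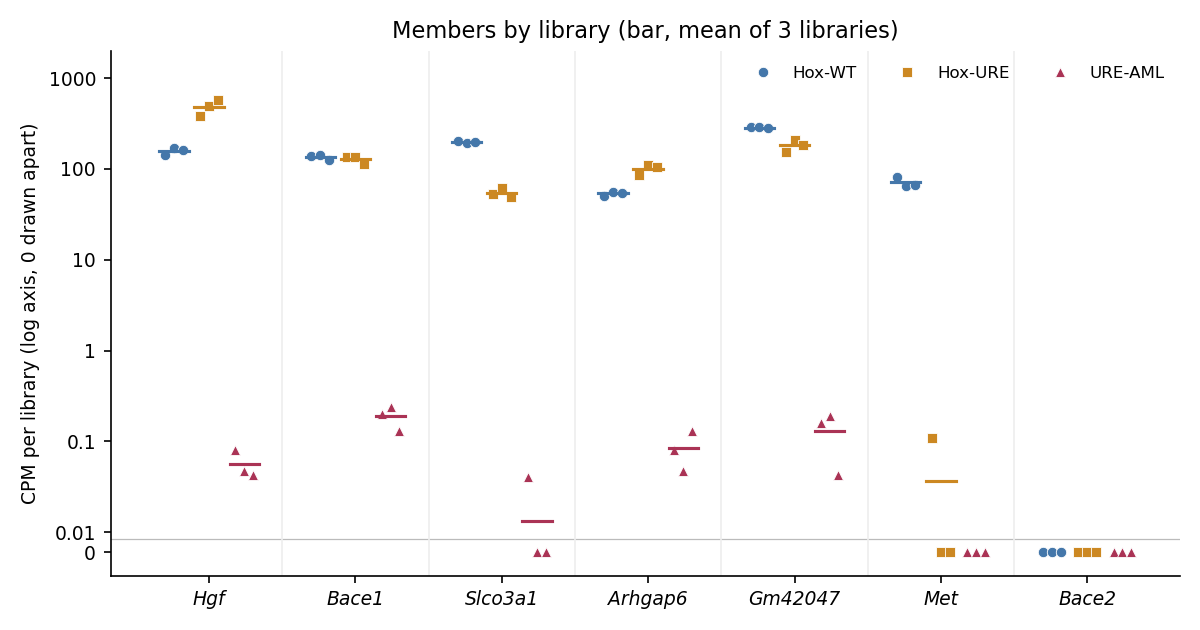
CPM of each of the 7 genes in every library (points, log axis with 0 drawn apart below the grey line) and the mean of 3 libraries (bars), by line. The 5 silent genes lie between 49.5 and 568 CPM in the Hox libraries and at or below 0.238 CPM in URE-AML, *Met* is lost in Hox-URE as well, and *Bace2* is at 0 throughout.

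Markers of cells that make HGF were read beside it. The summed level of 8 basophil and mast cell markers was 483 to 838, 1612 to 5889 and 31.4 to 62.8 CPM, and 5, 5 and 6 of the 8 had more than 3 counts in the lines. *Cpa3*, a mast cell carboxypeptidase, led that sum in the Hox lines with 547 ± 178, 2663 ± 1837 and 1.37 ± 0.857 CPM (SD, n = 3 each), while *Cma1* and *Tpsb2* were at or under 3 counts in all 3 lines. In URE-AML the sum was mostly *Mcpt8*, a basophil protease gene, at 8.56 ± 4.19, 83.8 ± 37.9 and 32.5 ± 15.3 CPM. Of the 5 tested, 4 rose in Hox-URE against Hox-WT and 5 fell in URE-AML against Hox-URE, while in URE-AML against Hox-WT 3 fell and 1 (*Mcpt8*) rose. The lines thus stood in the same order by the summed level as by *Hgf*. This order was not particular to the list. The summed megakaryocyte and platelet markers, at 6.74 to 15.9, 16.5 to 51 and 1.94 to 5.15 CPM, shared it. The part of these cell types in the result was not tested. Of 9 fibroblast and stroma markers, the defining *Col1a1*, *Col3a1*, *Pdgfra*, *Dcn* and *Lum* were at or under 3 counts in every library, and the list's sum (165 to 427, 230 to 677 and 10.3 to 20.1 CPM) was led in the Hox lines by *Thy1*, which blood progenitors also carry and which had 0 counts in URE-AML, where the sum was mostly *Pdgfrb*, a receptor of stromal cells and pericytes. Of its 4 tested genes, 3 rose in Hox-URE against Hox-WT (*Col1a2*, *Pdgfrb* and *Cxcl12*). All 4 fell in URE-AML against Hox-URE (median -9.40), while against Hox-WT 2 fell in URE-AML (*Thy1* and *Col1a2*). These counts stand beside the same shares over all genes tested. *Col1a2* was at 0.871 ± 0.084, 2.69 ± 1.28 and 0 CPM, *Pdgfrb* at 14.8 ± 1.11, 63.3 ± 15.3 and 16.2 ± 5.19, and *Cxcl12* at 0, 4.31 ± 2.4 and 0 (SD, n = 3 each). Their part in the result was not tested either. In bulk libraries, fewer cells of a type and less RNA per cell cannot be told apart.

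*Met* (chromosome 6, 17463800 to 17573980, plus strand) followed another pattern. Its Hox-WT libraries held 2190, 1841 and 1920 counts, or 82.1, 65.7 and 66.4 CPM, while Hox-URE held 3, 0 and 0 and URE-AML held 0 in all 3. Receptor transcripts were thus above the floor in Hox-WT and in neither line with the URE deletion. *Met* was 1689-fold higher in Hox-WT than in Hox-URE (95% exact interval 578 to 8193) and at least 546-fold higher than in URE-AML. It passed the filter on low counts through Hox-WT alone, so no p-value is given for it. No fold is given for URE-AML against Hox-URE, since neither exceeded 3 counts. Hox-URE thus had the highest ligand level with next to no receptor transcript, Hox-WT had both, and URE-AML had neither above the floor. *Met* shares no 31-base word with another gene. At 9.3 ± 1.2 CPM per kb (SD, n = 3) it lay above 65.1% of the genes tested in Hox-WT.

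The proteases and inhibitors that set the activity of HGF also differed between lines. Of 18 listed genes, 7 were tested. Against Hox-WT, 4 rose and 2 fell in Hox-URE, where 21.3% of all genes tested were called higher and 15.9% lower, and 5 rose and 2 fell in URE-AML, where 23.0% were called higher and 20.2% lower. The list's median log2 fold change was 1.43 and 2.03, beside 0.00 over all genes tested in both comparisons. *St14*, which encodes matriptase, stood at 55.5 ± 2.1, 4.47 ± 1.89 and 0.644 ± 0.195 CPM (SD, n = 3 each), a fall of 13.1-fold in Hox-URE (adjusted p = 2.36e-06) and 87.3-fold in URE-AML (adjusted p = 1.01e-07). Its inhibitor gene *Spint2* fell beside it, with 42 ± 7.6, 20.3 ± 5.11 and 3.75 ± 1.43 CPM. The other inhibitor gene plotted, *Spint1*, stood lowest in Hox-WT, with 0.112 to 0.286, 1.71 to 2.11 and 0.856 to 0.987 CPM in the libraries.

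*Plau*, the gene of the urokinase activator, moved the other way, with 2.38 ± 0.248, 101 ± 67.3 and 88.2 ± 15.4 CPM (SD, n = 3 each), and the rise passed the test in Hox-URE (adjusted p = 1.4e-05) and in URE-AML (adjusted p = 1.11e-05). *Hpn*, which encodes hepsin, rose from 1.49 ± 0.268 to 4.03 ± 1.16 and 9.01 ± 2.27 CPM, passing the test in all 3 comparisons. In URE-AML against Hox-URE, where 20.3% of all genes were called higher and 22.4% lower, 3 rose and 3 fell, with a median of -0.19.

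Among 25 tested genes of the MET family and its adaptors, *Met* included, 6 rose and 4 fell in Hox-URE against Hox-WT. In URE-AML, 5 rose and 7 fell against Hox-WT, and 3 rose and 8 fell against Hox-URE. The medians were 0.11, 0.10 and -0.25. The share of the list called in the 3 comparisons was 40%, 48% and 44%, near the 37.2%, 43.2% and 42.7% over all genes tested, and the shares of the lists below are read against the same values. *Mst1* encodes the ligand most related to HGF. It stood at 0.989 ± 0.141, 49.3 ± 8.03 and 46.3 ± 8.69 CPM (SD, n = 3 each), above Hox-WT in Hox-URE (adjusted p = 3.31e-08) and URE-AML (adjusted p = 1.43e-08). It was thus high in both lines with the deletion, while *Mst1r*, the gene of its receptor, had 0 counts in all 9 libraries.

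*Lrig1*, which encodes a negative regulator of receptor tyrosine kinases, was listed at 0, 44.2 ± 2.25 and 5.16 ± 0.306 CPM and passed the test in all 3 comparisons. *Gab1*, the docking protein of MET, fell in URE-AML to 0.664 ± 0.373 CPM from 13.4 ± 1.68 in Hox-WT (20.6-fold, adjusted p = 2.48e-06) and 8.98 ± 1.97 in Hox-URE (13.7-fold, adjusted p = 7.74e-06). *Grb2*, an adaptor of many receptors, was at 202 ± 7.35, 267 ± 11.8 and 80.9 ± 10 CPM, with URE-AML 3.27-fold below Hox-URE (adjusted p = 3.05e-07). Both stayed above the floor in URE-AML.

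Of 18 tested genes of other and like secreted growth factors, which include *Hgf* and *Mst1*, 10 rose and 1 fell in Hox-URE against Hox-WT (median 0.77). In URE-AML, 9 rose and 6 fell against Hox-WT (median 0.43), and 5 rose and 9 fell against Hox-URE (median -1.02). The shares called were 61.1%, 83.3% and 77.8%. *Nrg1*, the gene of a ligand of ERBB receptors, was the 1 that fell in Hox-URE, from 43.7 ± 2.88 CPM to 0 counts, and it was at 0 in URE-AML as well. *Gas6*, a ligand of the AXL receptor family, was lowest in the leukemia line, with 30.9 ± 5.65, 16.4 ± 11.2 and 0.238 ± 0.137 CPM (adjusted p = 1.65e-05 against Hox-WT and 5.04e-05 against Hox-URE). *Tgfb3* rose in Hox-URE as *Hgf* did but was highest in URE-AML, with 0.0119 ± 0.0206, 19 ± 11.6 and 107 ± 15.4 CPM (adjusted p = 8.81e-06 and 6.47e-07 against Hox-WT).

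**Figure D2:**
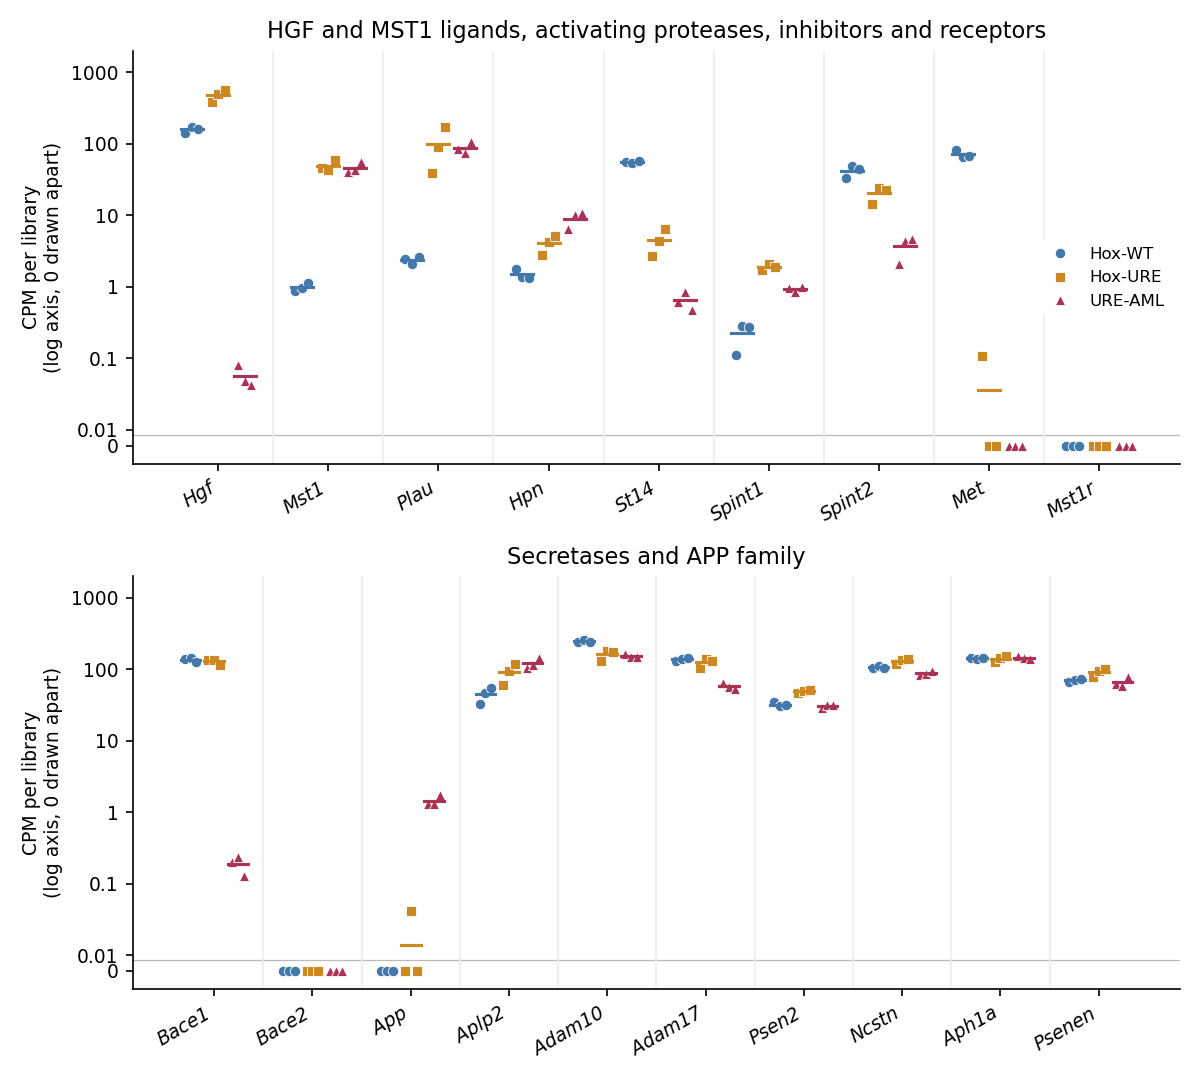
CPM in every library (points, log axis with 0 drawn apart below the grey line) and the mean of 3 (bars) for genes of HGF and MST1 signalling (top) and for secretases and the APP family (bottom). In URE-AML, *Hgf*, *Met* and *Bace1* lie at or below 0.238 CPM, while *Mst1*, *Plau* and the γ-secretase genes shown have means of 30.3 CPM or more.

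*Bace1* (chromosome 9, 45838580 to 45864399, plus strand) had 3723, 3939 and 3600 counts in Hox-WT, or 140, 141 and 124 CPM. Hox-URE held 3702, 3290 and 2220 counts, or 135, 136 and 113 CPM, and URE-AML held 5, 5 and 3 counts, or 0.202, 0.238 and 0.129 CPM. The Hox lines overlapped, and all URE-AML libraries lay far below them. *Bace1* was 716-fold higher in Hox-WT than in URE-AML (95% exact interval 419 to 1345) and 688-fold higher in Hox-URE (402 to 1292). Hox-URE and Hox-WT differed by a log2 fold change of -0.07 ± 0.10 (SE, adjusted p = 0.574), so that a difference was not detected, and of the 5 silent genes *Bace1* was the 1 not called between the Hox lines.

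The end of *Bace1* overlaps *Rnf214* on the opposite strand. Only 0.173% of the 31-base words of *Bace1* occur in other genes on the same strand, but 30.3% do when both strands are read. *Rnf214* was at 19 ± 1.33, 18.8 ± 3.85 and 14.2 ± 1.25 CPM (SD, n = 3 each) and was not called in any comparison. The libraries were stranded, and the 3 to 5 counts of *Bace1* in URE-AML stood beside 298 to 367 of *Rnf214*.

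*Bace2* (chromosome 16, 97356742 to 97442936, plus strand) had 0 counts in each library, which allows up to 0.153 CPM in the shallowest. No β-secretase transcript above 5 counts in a library was thus seen in URE-AML. The substrate gene *App* stood at 0, 0.0138 ± 0.0239 and 1.44 ± 0.272 CPM (URE-AML at least 13.4-fold over Hox-WT). It passed the filter on low counts through URE-AML alone, so no p-value is given for it. The Hox lines thus held *Bace1* with almost no *App* transcript, and URE-AML held a low level of *App* with almost no *Bace1*. The APP-like *Aplp2* was at 44.7 ± 11.3, 91.5 ± 29.3 and 120 ± 22.4 CPM, and both rises over Hox-WT passed the test (adjusted p = 0.0068 and 0.000874).

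Of 13 tested genes of the APP family and secretases, *Bace1* included, 3 rose and 1 fell in Hox-URE against Hox-WT (median 0.24), 2 rose and 4 fell in URE-AML against Hox-WT (median -0.07) and 1 rose and 4 fell against Hox-URE (median -0.48). The shares called were 30.8%, 46.2% and 38.5%. The α-secretase gene *Adam17* fell in URE-AML to 58.2 ± 5.76 CPM from 136 ± 6.74 in Hox-WT (2.33-fold, adjusted p = 1.3e-05) and 124 ± 18.6 in Hox-URE (2.11-fold, adjusted p = 3.18e-05). *Aph1b*, a γ-secretase subunit, was highest in Hox-URE, with 0.0941 ± 0.105, 4.59 ± 0.719 and 0.176 ± 0.0892 CPM.

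Of 17 tested genes for BACE1 trafficking and turnover, 5 rose and 4 fell in Hox-URE against Hox-WT (median 0.39). In URE-AML, 3 rose and 1 fell against Hox-WT (median 0.17), and 4 rose and 5 fell against Hox-URE (median -0.01). The shares called were 52.9%, 23.5% and 52.9%. The sorting receptor genes *Sorl1* and *Sort1* were lowest in Hox-URE. *Sorl1* had 20.9 ± 1.79, 0 and 30.9 ± 4.98 CPM, and *Sort1* had 132 ± 8.67, 7.96 ± 2.47 and 490 ± 64.4 CPM. *Gga2*, an adaptor that carries BACE1 between endosome and Golgi, followed with 83.8 ± 2.15, 29.4 ± 3.44 and 87.1 ± 17.4 CPM.

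Of 13 tested genes whose proteins BACE1 is known to cut, 5 rose and 4 fell in Hox-URE against Hox-WT (median 0.00), and in URE-AML 8 rose and 3 fell against Hox-WT (median 1.42) and 6 rose and 3 fell against Hox-URE (median 1.02). The shares called were 69.2%, 84.6% and 69.2%. *Vcam1*, an adhesion molecule, rose from 0.035 ± 0.0346 CPM in Hox-WT and 0.0121 ± 0.021 in Hox-URE to 354 ± 154 in URE-AML (adjusted p = 3.66e-08 and 5.19e-08). *Jag1*, a Notch ligand, fell from 16.1 ± 0.219 CPM in Hox-WT through 1.38 ± 0.688 to 0.115 ± 0.0176 (adjusted p = 2.76e-07 for URE-AML against Hox-WT). Of 4 tested pepsin-type aspartic proteases, 1 (*Bace1*) fell from Hox-WT to URE-AML and 3 rose. *Ctse*, the gene of cathepsin E, led these with 0.11 ± 0.0764, 0.12 ± 0.107 and 71.8 ± 27.8 CPM. *Ctse* too passed the filter through URE-AML alone, and no p-value is given for it.

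*Slco3a1* (chromosome 7, 74275419 to 74554780, minus strand) had 5369, 5375 and 5677 counts in Hox-WT, or 201, 192 and 196 CPM. Hox-URE held 1461, 1502 and 969 counts, or 53.2, 62.2 and 49.5 CPM, and URE-AML held 1 count in library 1 and 0 in the others. The 3 lines did not overlap, and the order was Hox-WT, Hox-URE, URE-AML. Hox-URE was 3.56-fold below Hox-WT, with a log2 fold change of -1.84 ± 0.12 (SE, adjusted p = 1.1e-06). Against URE-AML the ratio was 13573 in Hox-WT (95% exact interval 2436 to 536148) and 3817 in Hox-URE (685 to 150805), wide intervals that reflect the 1 read seen in 3 libraries.

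Of 15 *Slco* genes, 3 were tested and 9 were at 0 in all libraries. *Slco4a1*, a carrier of thyroid hormones and prostaglandins, ran opposite to *Slco3a1*, with 20.5 ± 0.969, 33.3 ± 2.28 and 99 ± 7.38 CPM (adjusted p = 0.000204 for Hox-URE and 3.42e-08 for URE-AML against Hox-WT). *Slco4c1* had 0 counts in both Hox lines and 1.24 ± 0.553 CPM in URE-AML. Among 18 tested genes of prostaglandin and leukotriene synthesis, transport and reception, *Slco3a1* included, 6 rose and 4 fell in Hox-URE against Hox-WT (median 0.26), and in URE-AML 4 rose and 8 fell against Hox-WT (median -0.38) and 3 rose and 9 fell against Hox-URE (median -1.49). In those comparisons 55.6%, 66.7% and 66.7% of the list were called.

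The enzymes that fell in URE-AML included *Hpgds*, a prostaglandin D synthase of mast cells and lymphocytes, with 6.55 ± 1.7, 0.816 ± 0.142 and 0 CPM (at least 50.1-fold against Hox-WT, adjusted p = 2.33e-06). The inducible cyclooxygenase gene *Ptgs2* was at 3.11 ± 1.1, 14.1 ± 8.76 and 0.297 ± 0.154 CPM (adjusted p = 0.000695 against Hox-WT). The constitutive *Ptgs1* rose in URE-AML from 113 ± 9.89 CPM in Hox-WT to 286 ± 26 (adjusted p = 1.16e-05), and *Alox5ap*, which serves leukotriene synthesis, from 116 ± 7.08 to 375 ± 39.3 (adjusted p = 3.25e-07).

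*Arhgap6* (chromosome X, 168795099 to 169304435, plus strand) had 1359, 1565 and 1580 counts in Hox-WT, or 50.9, 55.9 and 54.6 CPM. Hox-URE held 2360, 2659 and 2068 counts, or 85.9, 110 and 106 CPM, and URE-AML held 2, 1 and 3. The lines did not overlap, with Hox-URE highest. The Hox lines differed 1.85-fold, with a log2 fold change of 0.90 ± 0.12 (SE, adjusted p = 0.000122). *Arhgap6* was 620-fold higher in Hox-WT than in URE-AML (95% exact interval 285 to 1692) and 1147-fold higher in Hox-URE (527 to 3126). *Hccs* overlaps it on the opposite strand and was at 44 ± 3.13, 30.3 ± 6.48 and 36.9 ± 4.92 CPM, not called in any comparison.

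Of 25 tested *Arhgap* genes, *Arhgap6* included, 7 rose and 10 fell in Hox-URE against Hox-WT (median -0.28). In URE-AML, 5 rose and 7 fell against Hox-WT (median -0.41), and 9 rose and 9 fell against Hox-URE (median 0.12). Called genes made up 68%, 48% and 72% of the family, beside the 37.2%, 43.2% and 42.7% over all genes. *Arhgap32*, which encodes a GAP for CDC42 and RHOA, had no counts in URE-AML, with 72.1 ± 9.46, 31.4 ± 14.5 and 0 CPM (at least 551-fold against Hox-WT, adjusted p = 1.49e-06). *Arhgap15*, a GAP for RAC1, fell to 2.01 ± 0.235 CPM from 69 ± 7.72 in Hox-WT and 31.4 ± 2.72 in Hox-URE. Other family members were higher in URE-AML, with *Arhgap40* at 0 counts in both Hox lines and 16 ± 5.27 CPM in URE-AML, and *Arhgap31*, a GAP for RAC1 and CDC42, at 23.3 ± 2.46, 59 ± 4.34 and 94.3 ± 4.96 CPM.

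*Gm42047* (ENSMUSG00000110631, chromosome 8, 121833247 to 121841178, plus strand) had 7703, 8031 and 8058 counts in Hox-WT, or 289, 287 and 279 CPM. Hox-URE held 4172, 5034 and 3592 counts, or 152, 209 and 183 CPM, and URE-AML held 4, 4 and 1. The lines did not overlap. *Gm42047* was 2185-fold higher in Hox-WT than in URE-AML (95% exact interval 1151 to 4779) and 1380-fold higher in Hox-URE (727 to 3020). Hox-URE lay 1.58-fold below Hox-WT, with a log2 fold change of -0.65 ± 0.13 (SE, adjusted p = 0.00208). This call was lost when a fold change of 1.5 itself was tested (adjusted p = 0.355, in a range of 1.43e-05 to 0.355 over 18 alternatives), and without Hox-URE library 1 the log2 fold change of -0.55 fell short of 1.5-fold.

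Reads of *Gm42047* are hard to place, since 72.3% of its 31-base words occur in other genes on the same strand. Of the 4988 bases of its longest transcript, 302 are covered by no shared word. The words shared with *Gm48362*, *Gm47939*, *Gm43549* and *Gm47761*, all lincRNA genes on other chromosomes, came to 38.2%, 37.2%, 36.9% and 36.2%. Of these only *Gm47761* had more than 18 counts in any library, and it followed the same order as *Gm42047*, with 41.5 ± 0.434, 24 ± 5.17 and 0.0904 ± 0.0786 CPM (SD, n = 3 each). Summed over *Gm42047* and the 6 genes that share most words with it, the libraries held 8842 to 9291, 4144 to 5770 and 18 to 19 counts. *Gm42047* itself made up 86.7% to 88.7% of that sum in the Hox libraries, so the sum mostly repeats it. Not every gene of the group fell. *Gm48362*, which shares the most words, had 3, 5 to 12 and 4 to 10 counts, and *Gm43549* had 0 to 4, 0 to 13 and 2 to 5. How the reads divide among these loci is uncertain.

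Between the Hox lines, of the 6 members tested, 2 rose (*Hgf* and *Arhgap6*), 3 fell (*Slco3a1*, *Gm42047* and *Met*) and *Bace1* was not called. Of all genes tested, 37.2% were called there. In URE-AML all 6 were called lower than in Hox-WT, where 43.2% of genes were called, and 5 lower than in Hox-URE, where 42.7% were. For the 5 silent genes the choice of members fixed that count, and *Met* could be tested only through its level in Hox-WT, so these counts support nothing. These comparisons share libraries.

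The members also stood at different levels. Per kilobase in Hox-WT, *Gm42047* was highest at 50.4 ± 0.942 CPM per kb, followed by *Slco3a1* at 23.2 ± 0.549, *Hgf* at 22 ± 2.03 and *Bace1* at 21.2 ± 1.42 (SD, n = 3 each). The *Hgf* libraries overlapped those of *Slco3a1* and of *Bace1*, so its place is not resolved, while the lowest *Slco3a1* library (22.6) lay just above the highest of *Bace1* (22.2). *Met* at 9.3 and *Arhgap6* at 4.44 ± 0.212 came below. In Hox-URE the order was *Hgf* at 67.1 ± 12.9, *Gm42047* at 32.1 ± 5.03, *Bace1* at 20.2 ± 2.02, *Arhgap6* at 8.29 ± 1.06 and *Slco3a1* at 6.49 ± 0.773, where the last pair overlapped. *Slco3a1* and *Arhgap6* thus lay clearly apart in Hox-WT and overlapped in Hox-URE.

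RefSeq promoter sequences (GRCm38.p6) matched 3 of the 7 members, *Hgf*, *Arhgap6* and *Met*, with 6 start sites. The 250 bases before the start are shown for *Hgf* and *Arhgap6*, which were lost in URE-AML and rose in Hox-URE, because PU.1 and its relatives of the ETS family bind sites with the core GGAA. Capitals mark GGAA on either strand (TTCC is its reverse complement). The first is chr5:16553245-16553494 and the second chrX:168794849-168795098, both on the plus strand, 5′ to 3′.
*Hgf*: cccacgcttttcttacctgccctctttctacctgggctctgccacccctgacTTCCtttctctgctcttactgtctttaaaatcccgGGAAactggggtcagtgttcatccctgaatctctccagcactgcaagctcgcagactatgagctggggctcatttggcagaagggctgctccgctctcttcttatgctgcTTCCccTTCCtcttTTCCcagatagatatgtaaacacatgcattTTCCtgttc
*Arhgap6*: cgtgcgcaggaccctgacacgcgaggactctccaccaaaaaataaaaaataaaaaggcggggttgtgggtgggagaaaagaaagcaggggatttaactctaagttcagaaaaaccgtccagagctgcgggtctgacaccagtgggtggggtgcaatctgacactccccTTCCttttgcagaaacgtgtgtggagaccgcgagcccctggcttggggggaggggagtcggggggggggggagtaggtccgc

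The *Hgf* promoter shown held 6 matches of the ETS core, 1 of them within the longer form preferred by PU.1 (GAGGAA), and no match of the RUNX1 core (TGTGGT). The *Arhgap6* promoter shown held 1 match of the ETS core and neither the longer form nor the RUNX1 core. The other start sites differed from those shown. The second of *Hgf* held 4 matches of the ETS core with 1 in the longer form, and the other *Arhgap6* sites, further along the gene, held 3 with 1 in the longer form and 4 with none. The 1 site of *Met* held 2 matches of the ETS core. Over 32851 promoters of this length, both strands searched, 93.4% held the ETS core (median 3 matches), 23.3% its longer form and 14% the RUNX1 core. The longer form contains the ETS core, so those counts overlap. CG dinucleotides numbered 4 and 5 at the *Hgf* sites, 3, 9 and 12 at those of *Arhgap6* and 24 at that of *Met*, beside a median of 6 in all promoters. The counts of the ETS core thus overlapped between *Hgf* and *Arhgap6*, and a match of letters is not a bound site.

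To place the members among other genes, silent genes were counted in each line as those with at most 3 counts in each of its libraries and a mean of at least 10 CPM in both other lines. URE-AML had 49 such genes (0.375% of those tested), Hox-WT 26 and Hox-URE 13. *Hgf*, *Slco3a1* and *Arhgap6* were among the 49, and *Hgf* ranked 3 and *Slco3a1* 6 by level in the Hox libraries. *Bace1* with up to 5 counts and *Gm42047* with up to 4 lay just outside. Of the 49, 47 were protein-coding, and they lay on 20 chromosomes with at most 6 on any.

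The 10 genes with the highest Hox level in that class were *Cd34*, *Thy1*, *Hgf*, *Ppp1r14c*, *Igll1*, *Slco3a1*, *Krt80*, *Slc18a2*, *Hoxb8* and *Adgra3*. *Cd34*, a surface marker of progenitors, led with 1434 ± 118 and 926 ± 266 CPM in the Hox lines, and its URE-AML libraries held 0 to 1 counts. In Hox-URE against Hox-WT, 17 of the 49 were higher and 12 lower, with a median log2 fold change of 0.19 and a range of -2.92 to 3.55, where 21.3% of all genes tested were called higher and 15.9% lower. The class holds 3 of the members and was cut by its level in the Hox lines, so nothing is read from that difference.

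**Figure D3:**
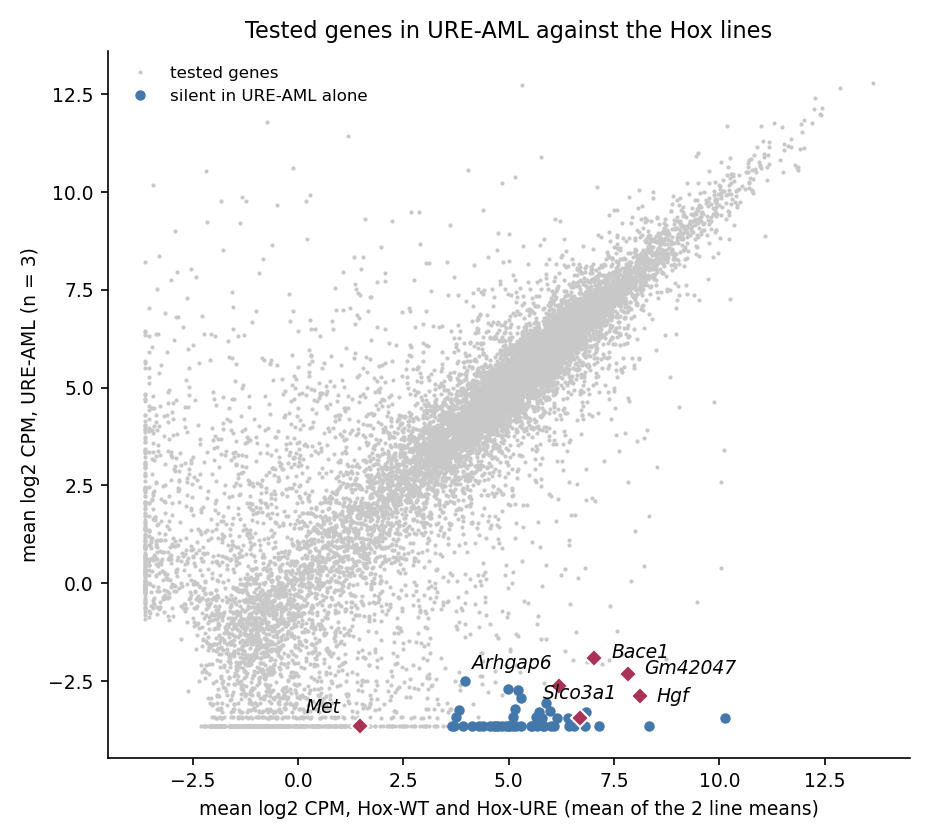
Mean log2 CPM of each tested gene in URE-AML (vertical axis, 3 libraries) against the mean of the Hox-WT and Hox-URE means (horizontal axis), with a prior count that puts genes at 0 on the lower and left edges. The tested members (diamonds) lie near the lower edge with the 49 genes silent in URE-AML alone (blue), and *Met* lies to their left because it was also lost in Hox-URE.

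Protein-coding and long non-coding genes near the silent members were read beside them. The 5 nearest such genes on each side of the 5 silent members and those overlapping them came to 57, of which 14 were tested. In URE-AML 4 of the 14 rose and 2 fell against Hox-WT, 3 rose and 3 fell against Hox-URE, and none of the 14 was silent in URE-AML alone. Pseudogenes, small RNAs and unclassified (TEC) transcripts were left out of these counts. Of such genes overlapping a silent member, *Gm43489* and *Gm49338* were tested. *Gm43489* lies within *Hgf* on the same strand and was lost with it, as given above, and *Gm49338* lies opposite *Bace1* and had 15 to 27 counts in URE-AML. In Hox-URE against Hox-WT 4 were called, and these rose. The 6 of 14 called in each comparison of URE-AML are near the 43.2% and 42.7% over all genes, and the 4 of 14 between the Hox lines stand beside 37.2%, so nothing is read about the neighbours as a group. Most neighbours could not be read, and *Slco3a1* had no tested neighbour among 11.

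Beside *Bace1*, *Pcsk7*, which encodes a proprotein convertase, lay 42.1 kb after it with 28.2, 33.3 and 34.5 CPM and was not called. *Sidt2*, a lysosomal membrane protein, lay 73.5 kb after it and rose from 87.2 to 139 and 224 CPM (adjusted p = 3.95e-06 for URE-AML against Hox-WT). *Klhdc4*, 3.7 kb before *Gm42047*, fell from 87.1 and 76.7 CPM to 44.1 in URE-AML (adjusted p = 3.2e-05 against Hox-WT). These neighbours were thus transcribed in URE-AML, where the members beside them had 1 to 5 reads a library.

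Near *Arhgap6*, *Msl3*, a subunit of a histone acetyltransferase complex, had 64.8, 60.4 and 66 CPM, with a log2 fold change of 0.03 ± 0.09 for URE-AML over Hox-WT (SE, adjusted p = 0.815). *Tlr7*, a receptor for RNA, lay 1464.5 kb before it and stood at 0.0724, 0.0121 and 30.4 CPM. It passed the filter on low counts through URE-AML alone, so no p-value is given for it. Beside *Gm43489* within it, *Hgf* had 1 tested neighbour, *Sema3c*, a secreted guidance factor 954.1 kb after it, with 0 counts in both Hox lines and 0.929 CPM in URE-AML.

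Around *Met*, 6 neighbours were tested. *Gm15581*, annotated as antisense and 78.2 kb before it, was the 1 with the same pattern, at 2.92 CPM in Hox-WT and 0 counts in Hox-URE and URE-AML. *Capza2*, an actin-capping protein 62.3 kb after *Met*, was at 257, 233 and 210 CPM and was not called. *Wnt2*, a secreted signalling factor 415 kb after it, had 0 counts in Hox-WT and URE-AML and 101 CPM in Hox-URE, the reverse of *Met* between the Hox lines. *Gm15581* passed the filter on low counts through Hox-WT alone and *Wnt2* through Hox-URE alone, so no p-value is given for them.

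**Figure D4:**
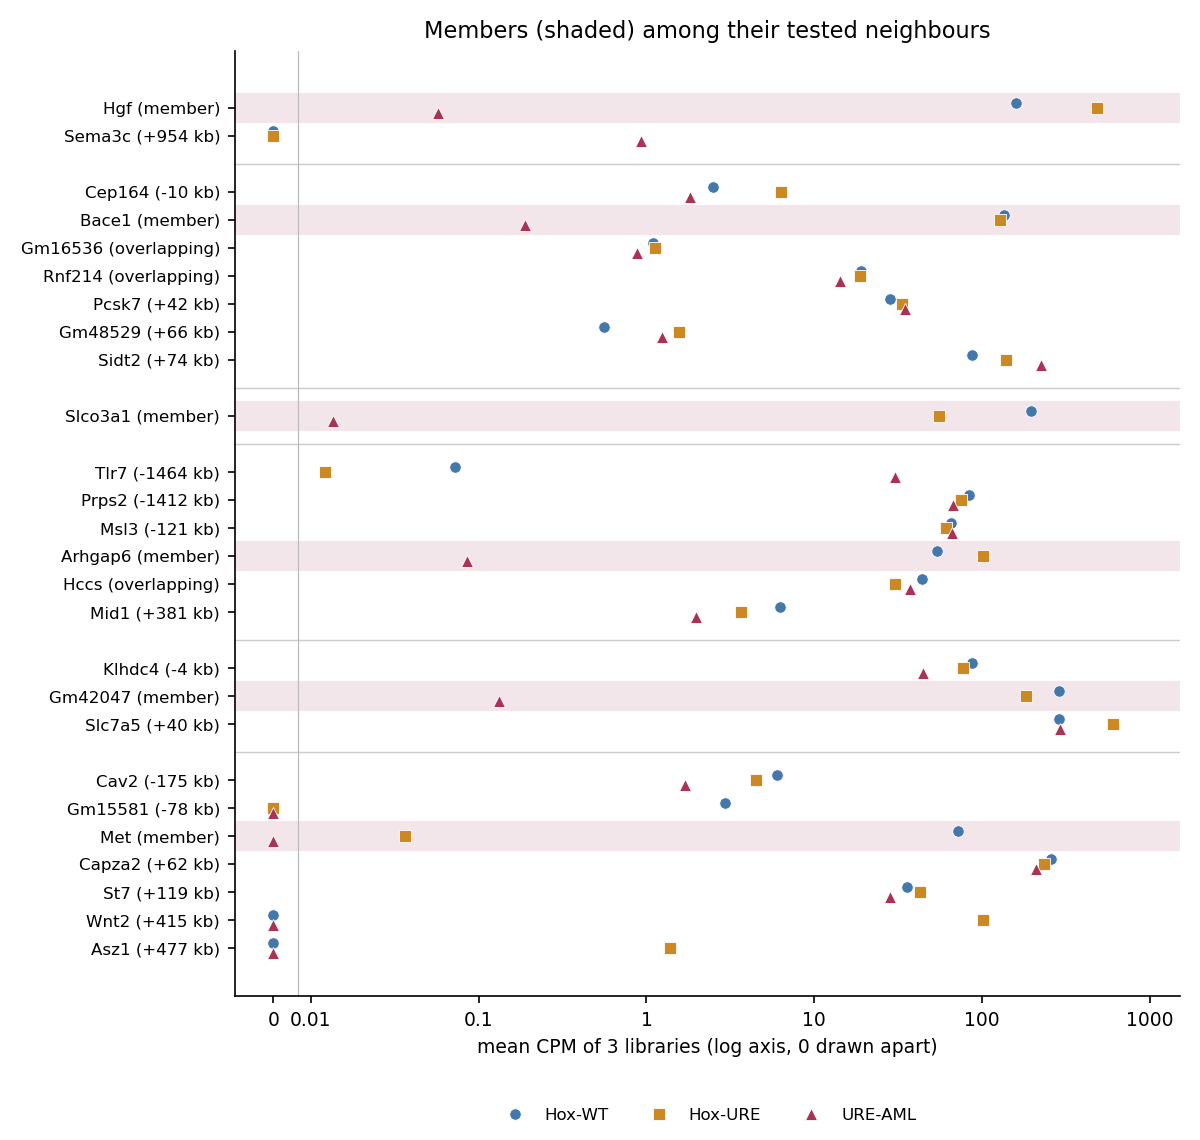
Mean CPM of 3 libraries (log axis, 0 drawn apart left of the grey line) by line for each tested member (shaded) and its tested neighbours in chromosomal order, with the distance in kb. In the rows of the silent members the URE-AML point stands apart at 0.189 CPM or less, while overlapping *Rnf214* and *Hccs* keep 14.2 and 36.9 CPM.

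By the distance between log2 CPM profiles, each centred on its own mean over the 9 libraries, the 3 genes most like each silent member were looked up. For *Hgf* they were *Slc18a2*, the vesicular monoamine transporter gene (distance 1.23), *Hoxb8* (1.45) and *Adgra3*, an adhesion receptor gene (1.57). All 3 had 0 counts in URE-AML and stood above Hox-WT in Hox-URE, and *Hoxb8* is the gene of the immortalizing fusion, so that reads of the fusion and of the gene itself cannot be told apart here. For *Bace1* they were the glutamate receptor gene *Gria3* (0.87), the fatty acid elongase gene *Elovl6* (0.99) and *Gpr12* (1.09).

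For *Slco3a1* they were *Cnn3*, a calponin (1.05), *Ppp1r14c*, a phosphatase inhibitor (1.45), and *Gm42047* (1.68), the 1 pair in which a member was among the closest genes of another. For *Arhgap6* they were *Grk3*, a receptor kinase, and *Tespa1* (0.66 each) and *Gria3* (1.03). For *Gm42047* they were *Gpr65*, a proton-sensing receptor (1.24), *Ppp1r14c* (1.35) and *Cnn3* (1.36). Distances between members ran from 1.59 for *Bace1* and *Arhgap6* to 4.41 for *Hgf* and *Slco3a1*, which moved in opposite directions between the Hox lines. The profiles rest on 3 lines, so likeness describes the order of 3 levels, and Pearson's r in place of the distance named 1 of these 15 choices again.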

How the data were processed

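Stranded libraries of poly-A RNA were sequenced, 3 for each of 3 mouse lines. The authors ran Salmon and combined transcripts into genes with tximport. Their deposited values are estimated counts in whole numbers with no correction for depth. GRCm38 is the build in the submitters' processing notes. The transcriptome release, the strand setting and any scaling for transcript length are not given in the sources used here, so a shift in transcript use may alter a count. Lines and replicate numbers came from the sample labels.

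Total counts were 20331064 to 28588718, and TMM factors 0.938 to 1.04. Genes kept by filterByExpr (minimum count 10) were fitted by line with edgeR 4.0.16 in R 4.3.3, using the quasi-likelihood method and all 9 libraries together. Two-sided p-values were adjusted over 13082 genes (Benjamini-Hochberg). A gene was called (rose, fell) where the adjusted p was under 0.05 and the change exceeded 1.5-fold, as in the study, whose own test was DESeq2. Each SE is the size of the log2 fold change over the root of F. CPM per kb divides by merged exon length in GENCODE M21 (GRCm38). For the silent genes the fold is the ratio of summed counts per effective library size with an exact (Clopper-Pearson) 95% interval. A line at 0 was set to a floor of 3 counts per library and the fold written "at least". Shared sequence was counted as 31-base words of GENCODE transcripts. The code was tested on simulated data.

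The members and all lists were chosen with earlier results of these data known, and no list is independent evidence. Named genes were the members, *Spi1* and *Hoxb8*, list genes (for lists over 8 tested genes, the called ones with the largest change, up to 4 per direction), neighbours, the 3 nearest patterns per silent member, and the 10 silent genes highest in the Hox lines. The γ-secretase genes plotted, *Mst1r*, genes overlapping a member and single marker genes are named beyond that limit, after their values were seen. Alternatives were other scalings, filters and fold thresholds, DESeq2 1.42.0, the lines compared alone, the replicate number as a block, and leaving out each library. Results on some genes and on 1 of the lists are not reported here. No pair of libraries agreed within sampling noise. Figures were drawn with matplotlib 3.10.9.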

Additional observations from a re-analysis of the deposited data

How the results depend on the processing

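The 18 member results (6 genes, 3 comparisons) kept their direction in all 322 alternative values computed, and 320 kept their side of the threshold. The others concern *Gm42047* in Hox-URE against Hox-WT, with log2 fold changes of -0.65 under a test against 1.5-fold and -0.55 without Hox-URE library 1. *Met* in URE-AML against Hox-URE gave no value without Hox-URE library 1, since both lines were then at 0, and none in a fit of the 6 libraries of the lines compared, where it was not tested. Requiring at least 10 counts in every library left none of the members tested, and left 3200 calls for Hox-URE against Hox-WT, and for URE-AML 3602 against Hox-WT and 3553 against Hox-URE, where fewer genes were tested. Leaving out each library in turn gave 4687 to 5235, 5539 to 5945 and 5478 to 5873 calls in that order. Genes silent in URE-AML alone numbered 160 with a mean of at least 1 CPM in both Hox lines and 29 with 0 counts in each URE-AML library, and the latter hold none of the members. Scaling by library size alone shifted the median log2 fold change of all genes by 0.11 in URE-AML against Hox-URE and turned the balance of calls there, from 2662 higher and 2929 lower to 3166 and 2605, and in Hox-URE against Hox-WT, from 2789 and 2084 to 2502 and 2545. Choosing the nearest patterns by Pearson's r shared 1 of 15 genes with the choice by distance, so those names depend on the measure.

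With the replicate number as a block, 4908, 5679 and 5584 genes were called, and no call of a member changed. The deviations of same-numbered libraries correlated at 0.01 to 0.271, and not every pair exceeded 0.1, so the numbers were not taken to pair the libraries. With 0 to 5 counts of the members in each URE-AML library, the ratios against that line are known only to their intervals, and that of *Met*, at 0 there, only as a lower bound.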

Other observations

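Further markers set the lines apart. *Elane*, which encodes neutrophil elastase, was at 180 ± 62.4, 9.28 ± 1.28 and 7307 ± 3114 CPM (SD, n = 3 each, lines in the order Hox-WT, Hox-URE, URE-AML). The sum of 10 neutrophil precursor markers was 5613 to 9050, 2616 to 4001 and 11272 to 25966 CPM in their libraries. Against Hox-WT, 9 of the 10 fell in Hox-URE, where 15.9% of all genes tested were called lower. In URE-AML 8 rose against Hox-WT, where 23.0% of all genes were called higher. *Mpo*, the gene of myeloperoxidase, was at 5040 ± 1515, 5.04 ± 4.44 and 192 ± 19 CPM. *Prss34*, a basophil and mast cell protease, was at 0.213 ± 0.0901, 705 ± 336 and 0.56 ± 0.538 CPM, so that within the basophil and mast cell list *Cpa3* followed the order of *Hgf* while *Prss34* was high in Hox-URE alone.

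The monocyte markers summed to 81.2 to 165, 841 to 942 and 173 to 342 CPM, but the Hox-URE sum was mostly *Ccr2*, a chemokine receptor gene, at 12.7 ± 1.92, 885 ± 49.7 and 14.3 ± 3.64 CPM. Of the 7 tested, 1 rose (*Ccr2*) and 5 fell in Hox-URE against Hox-WT (median -5.42). Over all genes tested, 21.3% were called higher there and 15.9% lower. *Csf1r*, *Ms4a6c* and *Klf4* were at or under 3 counts in Hox-URE. The markers of megakaryocytes and platelets summed to 6.74 to 15.9, 16.5 to 51 and 1.94 to 5.15, and the erythroid ones to 1.16 to 2.63, 0.764 to 2.09 and 2.04 to 13.7. The lymphoid markers stayed at 2.6 CPM or less in every library, and the endothelial and epithelial ones summed to 160 to 168, 216 to 223 and 622 to 834 CPM with 4, 5 and 6 of 7 at or under 3 counts.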
